A study of Mus musculus with 30 samples.

Results

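The transcripts of 36 genes that commit a cell to S phase and copy its DNA were followed in the mouse mammary carcinoma line 4T1 after exposure to small extracellular vesicles (sEVs) from neutrophils. The 36 genes were chosen by symbol, as a curated set of G1/S and DNA replication genes, with earlier results of these data known. All 36 were found among the 39253 genes of the count table, and all 36 passed the filter on low counts, which kept 13008 genes. Their mean levels over all libraries lay between 9.88 and 358 CPM, estimated counts scaled to a common library size.

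Replication starts at origins that are licensed in G1. The origin recognition complex, CDC6 and CDT1 load the MCM2-7 helicase onto DNA. At S phase onset CDC45 and the GINS complex join it, and the DNA polymerases copy both strands behind the moving fork, held on the template by the PCNA ring that the RFC complex loads. Ribonucleotide reductase, thymidylate synthase and thymidine kinase supply the building blocks. Cyclin E and the E2F factors switch on many of these genes together in late G1, so their transcripts are widely read as a signature of proliferating cells. Proliferation of 4T1 cells is rapid in culture and in BALB/c mice, the strain they come from.

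The vesicles were isolated with a commercial kit from Ly6G+ primary neutrophils of wild-type BALB/c female mice, after the neutrophils had spent 48 h in 10 µM 27-hydroxycholesterol (27HC), a cholesterol metabolite, or in the solvent DMSO. All 4T1 cells received vesicles in medium made with EV-depleted serum, for 48 or 72 h, and no cells without vesicles are among the groups compared here. DMSO-sEV cells were collected as adherent cells, with 5 libraries at each time. Cells given 27HC-sEVs were collected as an adherent fraction, with 5 libraries at each time, and as a non-adherent fraction that had left the plate, with 5 libraries at 48 h and 4 at 72 h. No DMSO-sEV non-adherent group was compared, so detachment and vesicle type cannot be told apart where non-adherent cells are set against DMSO-sEV cells. Whether replicates came from separate cultures or vesicle preparations is not stated in the labels, and the p-values then measure only how far these libraries spread, which could be technical.

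Library depth ran from 18794529 to 31358795 estimated counts. Among the DMSO-sEV cells, replicates 1 to 3 stood apart from replicates 4 and 5: the trimmed-mean (TMM) scaling factors at 72 h were 0.845 to 0.899 in replicates 1 to 3 and 0.998 to 1 in replicates 4 and 5, against 0.982 to 1.06 in all 27HC-sEV libraries. Counts against DMSO-sEV cells, and the values of some of the genes described at length, are therefore also given with each set of DMSO-sEV replicates alone. For the other genes such values are not given, which does not mean that the sets were alike. The 8 epithelial tumour cell markers summed to between 2462 and 5018 CPM per library, and none was at 0. Of 14 neutrophil markers, Ly6g, Mpo, Elane, Csf3r and Mmp8 were at 0 in every library. Their summed level ran from 0.0946 to 0.593 CPM in DMSO-sEV, 0.199 to 0.895 CPM in adherent and 0.318 to 0.761 CPM in non-adherent 27HC-sEV cells at 48 h, and from 0.311 to 0.982, 1.39 to 1.96 and 1.53 to 1.97 CPM at 72 h. The 8 macrophage markers summed to between 2.74 and 3.88 CPM in DMSO-sEV cells at 48 h and between 1.92 and 4.26 CPM at 72 h. In adherent 27HC-sEV cells they summed to between 6.32 and 9.28 CPM at 48 h and between 10.3 and 13.3 CPM at 72 h, and in non-adherent cells to between 5.32 and 7.49 CPM and between 9.35 and 10.7 CPM, with Adgre1, C1qa, C1qb and C1qc at 0 throughout. The 7 fibroblast markers summed to between 26 and 53.5 CPM, with Col3a1 at 0. The part of these markers in the results below was not tested.

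Promoter sequence, 250 bases before to 50 bases after the annotated start, was matched by gene identifier in RefSeq (GRCm38.p6) for 29 of the 36 genes. Each was searched on both strands for 4 8-base forms of the E2F binding motif, TTTCCCGC, TTTCGCGC, TTTGCCGC and TTTGGCGC, which may overlap each other. At least 1 form was present in 12 of the 29 promoters (41.4%), against 704 of 27025 promoters of all genes (2.6%). The 4 sequences below that hold a match belong to a pair of genes that fell after 27HC-sEVs (Mcm3, Mcm5) and to the 2 of the 36 that rose in adherent cells after 27HC-sEVs (Gins3, Cdt1), and Rrm2, whose decrease was the largest at 48 h, is shown because its window holds none of the 4 forms. Capitals mark E2F matches, and positions count from the annotated start as 0.
Mcm3 promoter (chr1:20820263-20820562, minus strand, matches at 19 and 38): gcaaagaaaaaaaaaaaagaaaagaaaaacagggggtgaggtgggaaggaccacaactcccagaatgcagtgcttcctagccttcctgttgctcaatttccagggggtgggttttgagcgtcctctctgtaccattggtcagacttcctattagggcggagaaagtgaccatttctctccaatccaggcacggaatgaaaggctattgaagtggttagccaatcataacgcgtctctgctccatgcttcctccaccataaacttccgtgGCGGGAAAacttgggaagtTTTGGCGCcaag
Mcm5 promoter (chr8:75109259-75109558, plus strand, overlapping matches at -153 and -149): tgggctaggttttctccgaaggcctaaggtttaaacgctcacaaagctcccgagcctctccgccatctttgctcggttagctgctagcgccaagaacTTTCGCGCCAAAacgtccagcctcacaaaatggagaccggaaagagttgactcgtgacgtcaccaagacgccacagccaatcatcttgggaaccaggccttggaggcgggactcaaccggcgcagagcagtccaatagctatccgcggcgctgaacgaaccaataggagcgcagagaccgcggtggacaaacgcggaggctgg
Gins3 promoter (chr8:95633309-95633608, plus strand, match at -41): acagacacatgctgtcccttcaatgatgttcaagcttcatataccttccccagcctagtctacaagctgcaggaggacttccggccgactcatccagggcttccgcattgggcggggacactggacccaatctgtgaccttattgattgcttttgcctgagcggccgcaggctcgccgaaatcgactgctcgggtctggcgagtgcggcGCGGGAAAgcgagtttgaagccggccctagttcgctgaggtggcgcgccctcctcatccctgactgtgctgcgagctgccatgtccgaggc
Cdt1 promoter (chr8:122567765-122568064, plus strand, match at 32): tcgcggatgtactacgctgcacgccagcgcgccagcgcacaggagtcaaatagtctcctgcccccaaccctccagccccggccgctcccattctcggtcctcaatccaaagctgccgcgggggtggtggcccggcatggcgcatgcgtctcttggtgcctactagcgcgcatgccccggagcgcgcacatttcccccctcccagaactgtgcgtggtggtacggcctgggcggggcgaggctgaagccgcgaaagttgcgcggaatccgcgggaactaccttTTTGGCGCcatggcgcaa
Rrm2 promoter (chr12:24708004-24708303, plus strand, no match): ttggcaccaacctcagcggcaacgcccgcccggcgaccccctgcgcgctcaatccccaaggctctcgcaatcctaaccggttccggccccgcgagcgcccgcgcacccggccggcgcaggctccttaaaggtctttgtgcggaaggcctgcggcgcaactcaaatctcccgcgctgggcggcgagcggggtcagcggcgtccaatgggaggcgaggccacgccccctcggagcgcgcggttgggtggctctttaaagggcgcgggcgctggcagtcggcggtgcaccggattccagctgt

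A match is a description of letters and not a measured binding site, base composition was not adjusted for, and a window without these letters says nothing about E2F binding. The same search found E2F matches in 11 of 37 promoters of other origin and fork genes (29.7%), in 8 of 22 of E2F, pocket protein and CDK regulators (36.4%), in 4 of 18 of checkpoint and repair genes (22.2%), in 2 of 30 of G2/M and mitosis genes (6.67%) and in 1 of 23 of other nucleotide synthesis genes (4.35%). The CHR element (TTTGAA), which marks many late cell cycle promoters, was present in 4 of the 29 replication gene promoters (13.8%), in 23 of 30 G2/M promoters (76.7%) and in 20.2% of all promoters. The NF-Y motif (CCAAT) was present in 18 of the 29 (62.1%) and in 41.1% of all promoters. The plot of motif shares shows these values side by side.

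**Figure D1:**
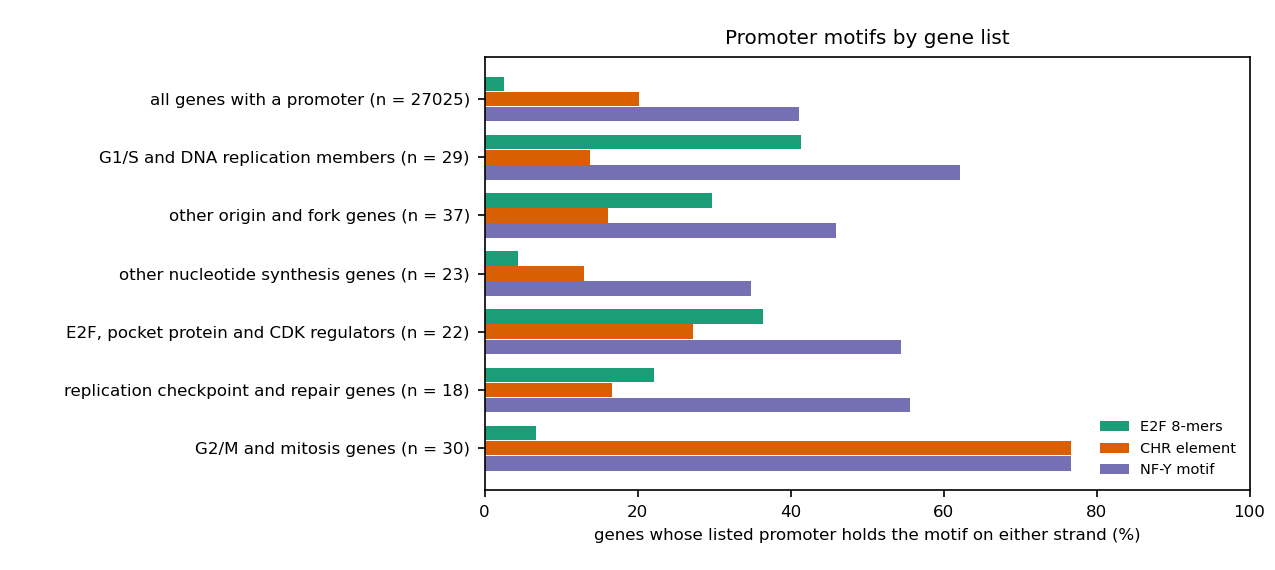
Percent of genes whose promoter window holds at least 1 E2F motif form, the CHR element or the NF-Y motif, for the replication genes, the other cell cycle lists and all genes with a RefSeq promoter. E2F forms are in 41.4% of the replication gene promoters and 2.6% of all promoters, while the CHR element is in 13.8% and 20.2%.

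Cells given 27HC-sEVs held lower levels of nearly all replication transcripts than cells given DMSO-sEVs, at both times and in both fractions. Averaged over the 36 genes, the log2 level differed from the mean of DMSO-sEV cells at 48 h by 0.066 ± 0.08 (SD, n = 5) in DMSO-sEV cells at 72 h, by -0.396 ± 0.032 (n = 5) in adherent 27HC-sEV cells at 48 h and by -0.598 ± 0.021 (n = 5) at 72 h. In the non-adherent cells it differed by -0.574 ± 0.029 (n = 5) at 48 h and by -0.737 ± 0.048 (n = 4) at 72 h. The libraries of the 27HC-sEV cells, from -0.805 to -0.339, did not overlap those of the DMSO-sEV cells, from -0.061 to 0.142. In bulk RNA, fewer cells in S phase and less of each transcript per cell cannot be told apart.

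**Figure D2:**
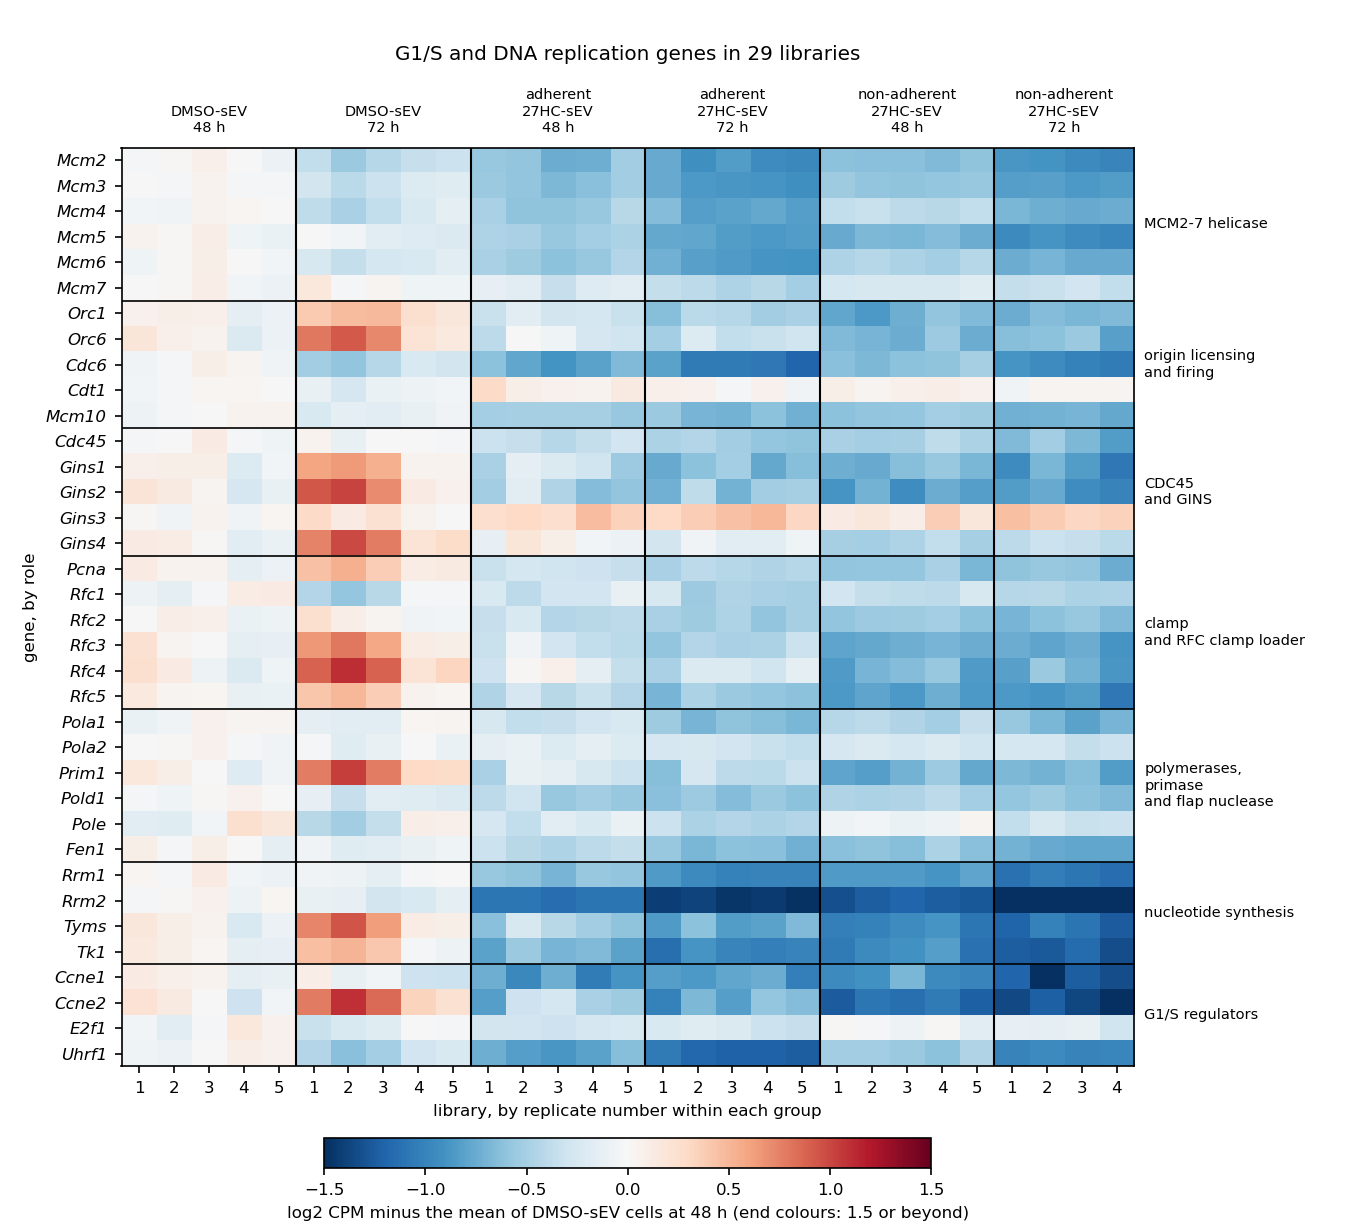
Log2 CPM of each of the 36 genes (rows, by role) in each of the 29 libraries (columns, by group), minus that gene's mean in DMSO-sEV cells at 48 h; blue is lower, red is higher, and the end colours hold differences of 1.5 or beyond. Most rows are blue in all 27HC-sEV libraries, Cdt1 and Gins3 are not, and in DMSO-sEV cells at 72 h replicates 1 to 3 are redder than replicates 4 and 5 in part of the rows.

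Adherent 27HC-sEV cells were set against DMSO-sEV cells to ask what differs in attached cells given vesicles of 27HC-exposed neutrophils. The adherent 27HC-sEV libraries leave out the cells that had detached. A change made by the vesicles and a change in which cells remained attached cannot be told apart. At 48 h, 29 of the 36 genes fell, 2 rose and 5 did not pass the test (edgeR's quasi-likelihood test, adjusted p under 0.05). Over all 13008 genes, 22.7% fell and 21.3% rose. The median log2 fold change of the 36 was -0.38 (range -1.10 to 0.32), against -0.00151 over all genes tested. At 72 h, 32 fell, 2 rose and 2 did not pass, where 33.4% of all genes fell and 32% rose, and the median was -0.66 (range -1.43 to 0.24) against 0.00152 over all genes tested. The genes that fell by at least 1.5-fold numbered 8 at 48 h and 19 at 72 h, where 4.77% and 13% of all genes did. Those that fell by at least 2-fold numbered 1 and 7, where 1.7% and 3.82% of all genes did. At 48 h, 24 of the 36 were lower in every 27HC-sEV library than in any DMSO-sEV library, as were 15.6% of all genes tested; at 72 h 31 were, against 21.7%. With DMSO-sEV replicates 1 to 3 alone, 32 fell at 48 h and 31 at 72 h, and with replicates 4 and 5 alone 24 and 34 fell. The shares over all genes above are of the fit with all replicates, and those of these refits are not given. The medians of the 36 were -0.44 and -0.65 with replicates 1 to 3 and -0.30 and -0.55 with replicates 4 and 5.

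**Figure D3:**
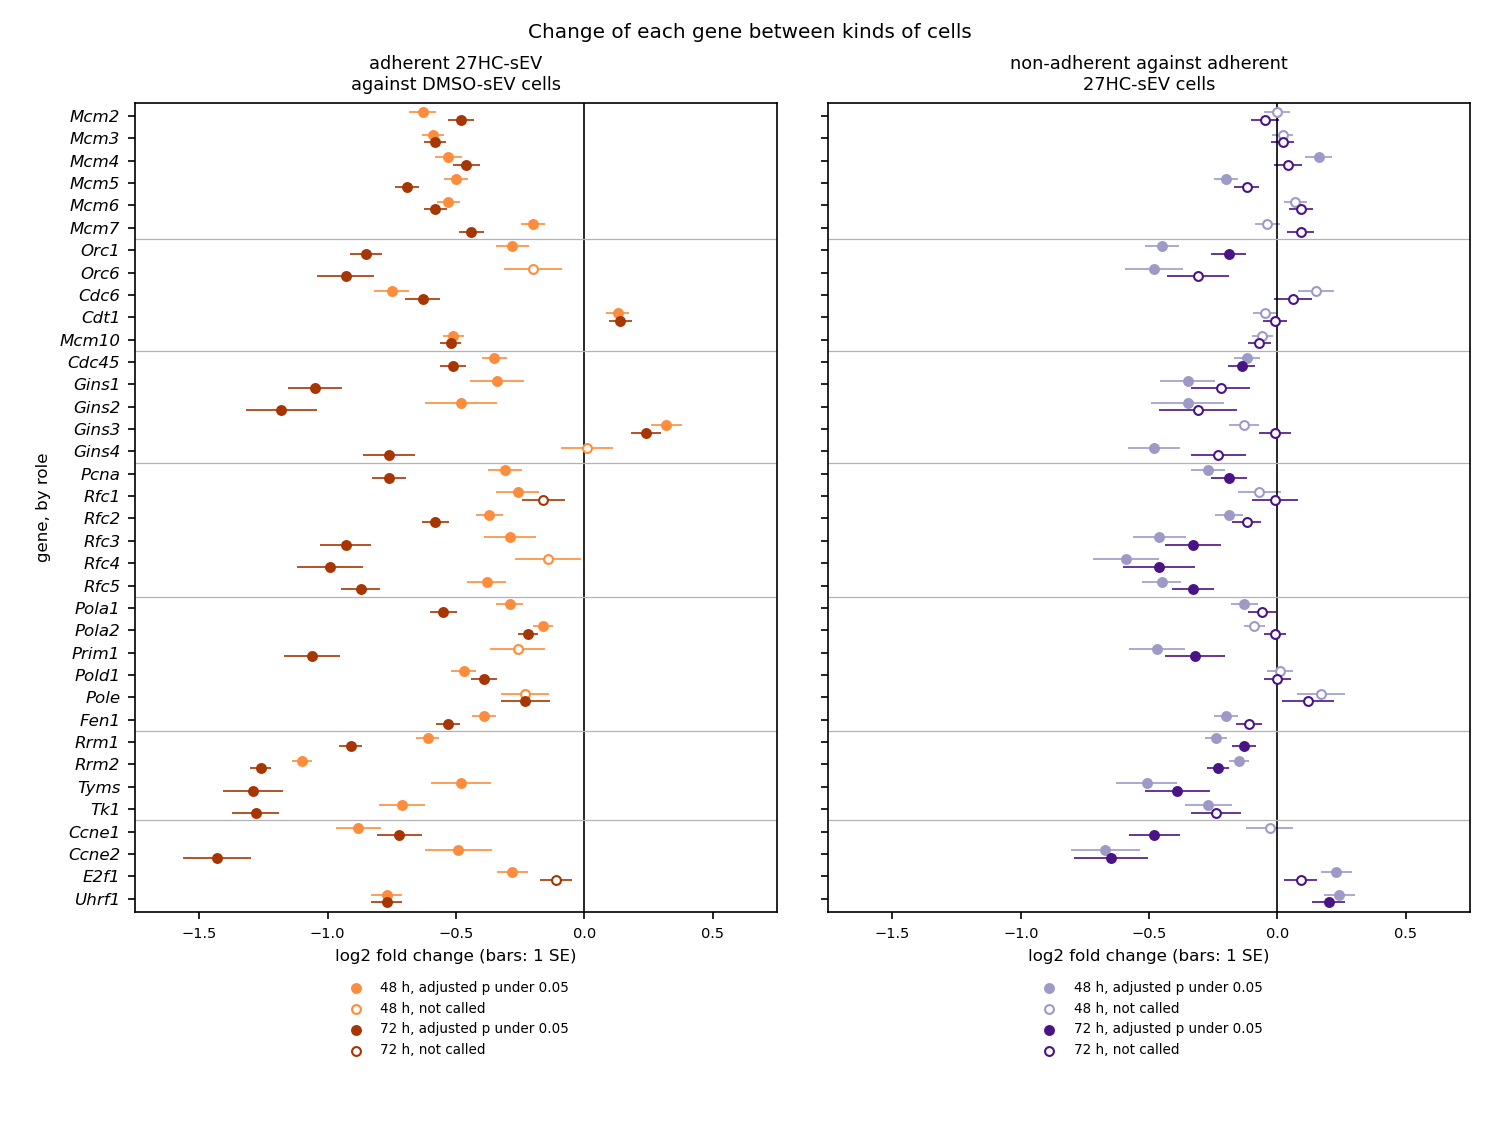
Log2 fold change of each gene, with bars of 1 SE and filled points where the edgeR adjusted p was under 0.05; the left panel sets adherent 27HC-sEV cells against DMSO-sEV cells and the right panel non-adherent against adherent 27HC-sEV cells, at 48 and 72 h. In the left panel 29 genes at 48 h and 32 at 72 h are filled and below 0, and in the right panel 20 and 12.

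Of the 6 subunits of the MCM2-7 helicase, the motor that unwinds the origin, all fell at both times, with a median of -0.53 at each. Mcm3 was at 279, 275, 291, 277 and 277 CPM in the 5 DMSO-sEV libraries at 48 h and at 190, 186, 175, 181 and 195 CPM in the adherent 27HC-sEV libraries, 2 ranges that did not overlap. Its log2 fold change was -0.59 (SE 0.0424, edgeR adjusted p = 2.7e-12), and at 72 h it was -0.58. Mcm5 had the largest change of the subunits at 72 h, from 329, 320, 294, 290 and 283 CPM to 194, 192, 185, 182 and 185 CPM, a fall of 1.62-fold (log2 fold change -0.69, SE 0.0459, edgeR adjusted p = 3.23e-13). Mcm7 fell by 0.20 and 0.44. Since the subunits assemble in equal number, their levels were also compared per kilobase of transcript. Mcm2 was the lowest of the 6 in all 6 groups, from 29.6 to 56.3 CPM per kilobase. The highest was Mcm5 in DMSO-sEV cells at 48 h, at 97.8 CPM per kilobase in the mean and in 4 of 5 libraries, and Mcm7 in the other 5 groups, at 70.2 to 95.3. The ratio of the highest to the lowest subunit was 1.74 in DMSO-sEV cells at 48 h and 2.2 to 2.53 in the other groups.

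The licensing and firing factors were divided. Mcm10, which joins the helicase when origins fire, fell by 0.51 on the log2 scale at 48 h (SE 0.0407, edgeR adjusted p = 2.24e-11) and by 0.52 at 72 h. Cdc6, the loader that acts with ORC, fell by 0.75 and 0.63. Orc1, the largest ORC subunit, fell by 0.28 at 48 h and by 0.85 at 72 h. Orc6 differed by -0.20 at 48 h, which did not pass the test (edgeR adjusted p = 0.141), and fell by 0.93 at 72 h (SE 0.112, edgeR adjusted p = 4.12e-08), with -1.16 against DMSO-sEV replicates 1 to 3 alone and -0.50 against replicates 4 and 5 alone. Cdt1, the partner of CDC6 in loading the helicase, moved the other way. Its level was 85.1, 85.8, 89, 88.6 and 87.4 CPM in DMSO-sEV cells at 48 h and 106, 92.7, 91.2, 90.7 and 95.7 CPM in adherent 27HC-sEV cells, so every 27HC-sEV library was above every DMSO-sEV library. The rise was small, with a log2 fold change of 0.13 at 48 h (SE 0.0443, edgeR adjusted p = 0.0194) and 0.14 at 72 h (SE 0.0444, edgeR adjusted p = 0.00817), and at 72 h the groups overlapped. The rise at 48 h did not pass the test without replicate 1 of the adherent 27HC-sEV cells (0.09, edgeR adjusted p = 0.0993). That at 72 h did not pass with DMSO-sEV replicates 4 and 5 alone (0.10), and with offsets for transcript length and GC content it was -0.06.

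CDC45 and GINS complete the active helicase, and the GINS subunits did not move as 1 unit. Cdc45 fell by 0.35 at 48 h (SE 0.0501, edgeR adjusted p = 1.46e-06) and by 0.51 at 72 h. Gins2 was at 63.3, 67.1, 54.5, 36.1 and 34.7 CPM in DMSO-sEV cells at 72 h and at 20.1, 25.5, 20.2, 23.1 and 23.5 CPM in adherent 27HC-sEV cells. The groups did not overlap, but DMSO-sEV replicates 1 to 3 were well above replicates 4 and 5. Gins2 fell 2.27-fold over all replicates (log2 fold change -1.18, SE 0.139, edgeR adjusted p = 2.5e-08), by 1.46 on the log2 scale with DMSO-sEV replicates 1 to 3 alone and by 0.64 with replicates 4 and 5 alone. At 48 h the change was -0.48. Gins1 fell at both times, by 0.34 and 1.05, and Gins4 differed by 0.01 at 48 h (edgeR adjusted p = 0.973) and fell by 0.76 at 72 h. Against DMSO-sEV replicates 1 to 3 alone Gins1 had -1.25 and Gins4 -0.98 at 72 h, and against replicates 4 and 5 alone -0.70 and -0.36. Gins3 rose. Its level was 25.7, 24.6, 26.4, 24.5 and 25.9 CPM in DMSO-sEV cells and 30.3, 31.2, 30.4, 35 and 32.2 CPM in adherent 27HC-sEV cells at 48 h, a rise of 1.25-fold with no overlap (log2 fold change 0.32, SE 0.06, edgeR adjusted p = 6.12e-05). At 72 h the levels were 31, 27.6, 29.9, 26.4 and 25.6 CPM and 31.2, 32.9, 34.4, 36 and 31.4 CPM, 1.18-fold higher and again without overlap (0.24, SE 0.0598, edgeR adjusted p = 0.000877). With offsets for length and GC content the rise of Gins3 was 0.33 at 48 h and 0.42 at 72 h.

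**Figure D4:**
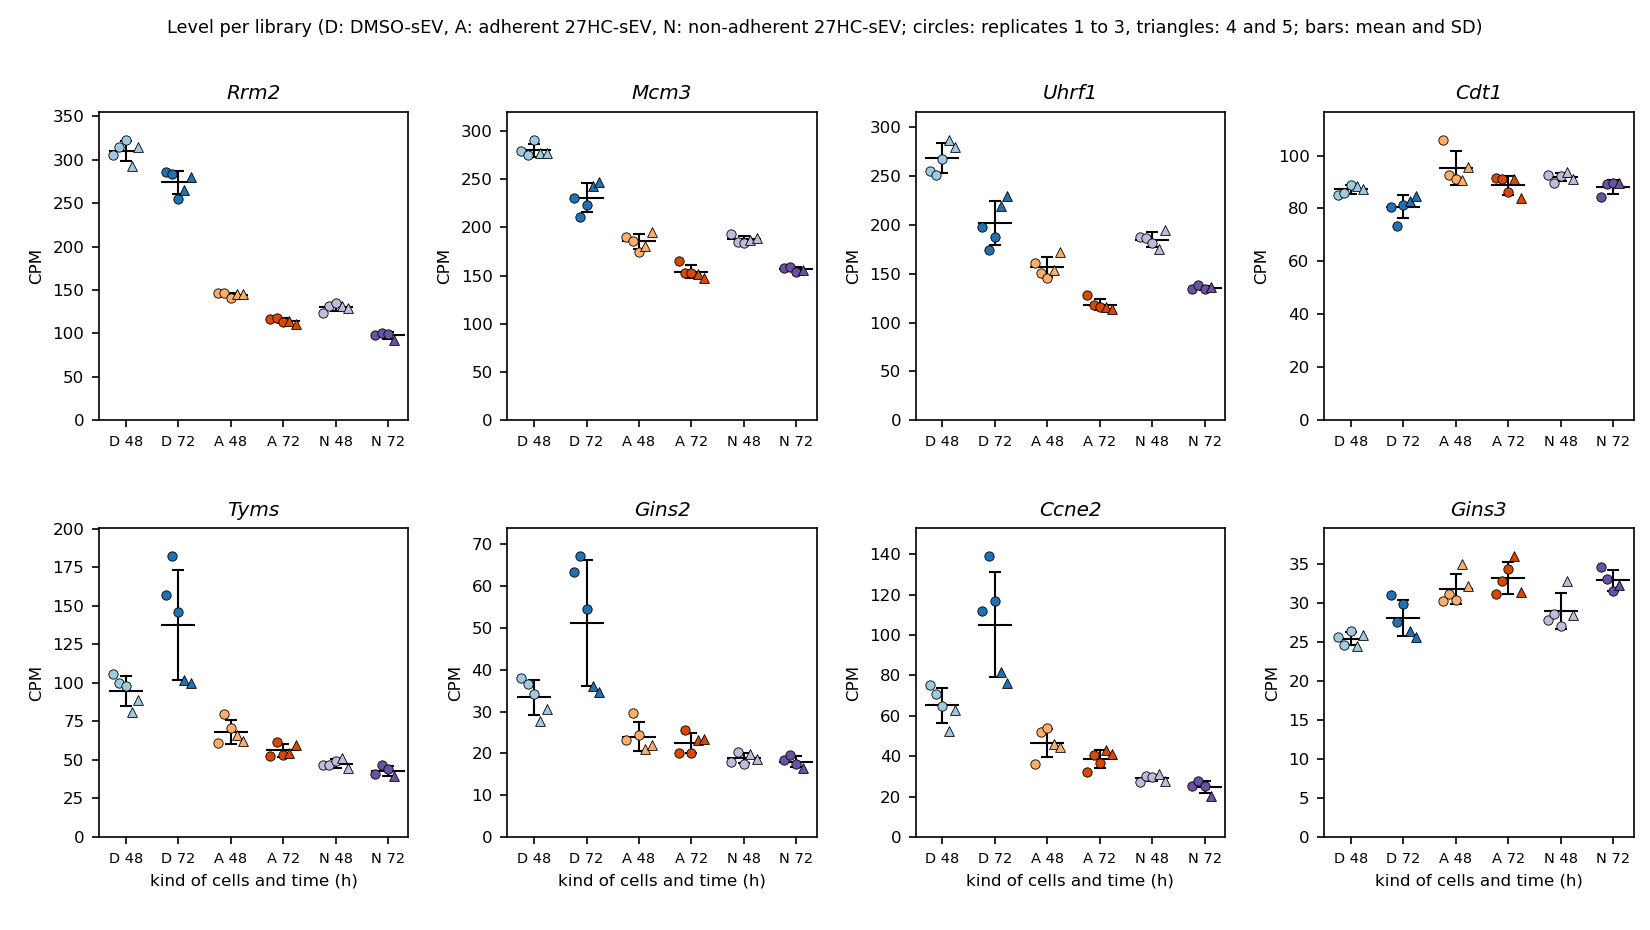
CPM per library (TMM-scaled) of Rrm2, Mcm3, Uhrf1, Cdt1, Tyms, Gins2, Ccne2 and Gins3 in DMSO-sEV (D), adherent (A) and non-adherent (N) 27HC-sEV cells at 48 and 72 h; circles are replicates 1 to 3, triangles replicates 4 and 5, and bars the mean and SD. Rrm2 and Mcm3 separate the D groups from all others, and for Tyms, Gins2 and Ccne2 the DMSO-sEV circles at 72 h lie above the triangles.

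Pcna, the sliding clamp, fell by 0.31 at 48 h and by 0.76 at 72 h, from a mean of 523 ± 67.6 CPM (SD, n = 5) to 307 ± 7.77 CPM (n = 5) at the later time. In DMSO-sEV cells at 72 h Pcna was at 566, 604 and 536 CPM in replicates 1 to 3 and at 450 and 457 CPM in replicates 4 and 5. It had the highest level per kilobase of all 36 genes in each of the 6 groups, from 178 to 344 CPM per kilobase. Among the RFC subunits, which load the clamp, Rfc2 fell by 0.37 at 48 h (SE 0.0536, edgeR adjusted p = 1.9e-06) and by 0.58 at 72 h. Rfc4 differed by -0.14 at 48 h (edgeR adjusted p = 0.392) and fell by 0.99 at 72 h (SE 0.128, edgeR adjusted p = 1.33e-07), by 1.24 with DMSO-sEV replicates 1 to 3 alone and by 0.52 with replicates 4 and 5 alone. Rfc3 and Rfc5 fell at both times, by 0.29 and 0.38 at 48 h and by 0.93 and 0.87 at 72 h; the call of Rfc3 at 48 h was lost without DMSO-sEV replicate 1 (-0.23) or 2 (-0.27). At 72 h the pair had -1.14 and -1.02 against DMSO-sEV replicates 1 to 3 alone and -0.55 and -0.61 against replicates 4 and 5 alone. Rfc1, the largest subunit, fell by 0.26 at 48 h and differed by -0.16 at 72 h (edgeR adjusted p = 0.097), which passed at -0.21 without DMSO-sEV replicate 2 or adherent replicate 1.

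All 6 genes of polymerases, primase and flap nuclease fell at 72 h and 4 of them at 48 h. Pold1, the catalytic subunit of the polymerase that copies mainly the lagging strand, fell by 0.47 at 48 h (SE 0.05, edgeR adjusted p = 8.56e-09) and by 0.39 at 72 h. Prim1, the catalytic subunit of primase, was at 152, 182, 151, 109 and 108 CPM in DMSO-sEV cells at 72 h and at 57, 74.6, 68.1, 67.1 and 71.3 CPM in adherent 27HC-sEV cells, with no overlap. It fell 2.08-fold (log2 fold change -1.06, SE 0.109, edgeR adjusted p = 2.38e-09), by 1.26 with DMSO-sEV replicates 1 to 3 alone and by 0.67 with replicates 4 and 5 alone, and at 48 h it differed by -0.26 (edgeR adjusted p = 0.0547). The value at 48 h passed, at -0.30 to -0.24, when any 1 of 6 libraries was left out (DMSO-sEV replicate 4 or adherent replicate 3 at 48 h, DMSO-sEV replicate 2, 4 or 5 or adherent replicate 1 at 72 h). Fen1, which trims Okazaki fragment flaps, fell by 0.39 and 0.53. Pole, the catalytic subunit of the leading strand polymerase, differed by -0.23 at both times. That passed the test at 72 h and not at 48 h (edgeR adjusted p = 0.0504), and at 72 h it was 0.00 with DMSO-sEV replicates 1 to 3 alone. The call of Pole turned on single libraries: at 72 h it was lost without DMSO-sEV replicate 4 or 5 or adherent replicate 2, 3, 4 or 5 (-0.23 to -0.14), and at 48 h it was gained, at -0.27 to -0.21, without DMSO-sEV replicate 1 or 2 or adherent replicate 5 at 48 h, or DMSO-sEV replicate 2, 4 or 5 at 72 h.

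All 4 nucleotide synthesis genes fell at both times, with medians of -0.66 and -1.27. Rrm2 encodes the small subunit of ribonucleotide reductase, which makes deoxynucleotides and whose level rises in S phase. Its level was 305, 314, 323, 293 and 315 CPM in DMSO-sEV cells and 146, 146, 141, 145 and 145 CPM in adherent 27HC-sEV cells at 48 h. At 72 h it was 286, 284, 255, 265 and 280 CPM and 117, 118, 113, 114 and 111 CPM. Every 27HC-sEV library was below every DMSO-sEV library, and the DMSO-sEV replicates overlapped each other. The fall was 2.14-fold at 48 h (log2 fold change -1.10, SE 0.04, edgeR adjusted p = 6.33e-19) and 2.39-fold at 72 h (-1.26, SE 0.0403, edgeR adjusted p = 2.91e-20). With DMSO-sEV replicates 1 to 3 alone it was -1.12 and -1.26 on the log2 scale, and with replicates 4 and 5 alone -1.06 and -1.23. Its partner Rrm1, the large subunit, fell by 0.61 and 0.91. Tyms, thymidylate synthase, was at 157, 182, 146, 102 and 100 CPM in DMSO-sEV cells at 72 h and at 52.5, 61.7, 52.9, 54.2 and 59.5 CPM in adherent 27HC-sEV cells. Both sets of DMSO-sEV replicates were above all 27HC-sEV libraries. It fell 2.45-fold at 72 h (-1.29, SE 0.118, edgeR adjusted p = 2.24e-10), by 1.53 with DMSO-sEV replicates 1 to 3 alone and by 0.84 with replicates 4 and 5 alone. Tk1, the thymidine kinase of the salvage path, fell by 0.71 at 48 h and 2.42-fold at 72 h (-1.28), with -1.46 against DMSO-sEV replicates 1 to 3 alone and -0.93 against replicates 4 and 5 alone.

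All 4 regulators at the head of the G1/S transition fell at 48 h and 3 of them at 72 h. Uhrf1, which brings the maintenance methyltransferase to newly copied DNA, was at 255, 251, 267, 287 and 280 CPM in DMSO-sEV cells and at 161, 151, 146, 154 and 172 CPM in adherent 27HC-sEV cells at 48 h. It fell 1.71-fold with no overlap (log2 fold change -0.77, SE 0.0604, edgeR adjusted p = 1.82e-11), and 1.7-fold at 72 h. Ccne2, a cyclin E that activates CDK2, was at 112, 139, 117, 81.7 and 76.1 CPM in DMSO-sEV cells at 72 h and at 32, 40.7, 36.6, 43.3 and 41.3 CPM in adherent 27HC-sEV cells. It fell 2.7-fold at 72 h (-1.43, SE 0.132, edgeR adjusted p = 2.42e-10), with -1.66 against DMSO-sEV replicates 1 to 3 alone and -1.01 against replicates 4 and 5 alone. Its fall was the largest of the 36 over all replicates, but not with replicates 4 and 5 alone, where Rrm2 had -1.23. Ccne1, the other cyclin E, fell 1.84-fold at 48 h and by 0.72 on the log2 scale at 72 h. E2f1, the transcription factor, fell by 0.28 at 48 h and differed by -0.11 at 72 h (edgeR adjusted p = 0.119), which passed at -0.14 without DMSO-sEV replicate 1.

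Most genes fell whether or not the promoter window held an E2F match. Of the 12 with a match, 10 fell and 2 rose at each time, with medians of -0.38 at 48 h and -0.58 at 72 h. Of the 17 without, 14 fell at 48 h and 15 at 72 h, with medians of -0.38 and -0.76. The 2 genes that rose, Cdt1 and Gins3, were both among those with a match.

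Non-adherent cells were set against adherent cells of the same 27HC-sEV treatment to ask what differs in the cells that had detached. The difference was smaller and went both ways. At 48 h, 20 of the 36 genes were lower in non-adherent cells and 3 higher by the test, where 28.4% of all genes were lower and 25.7% higher. The median log2 fold change was -0.14 (range -0.67 to 0.24), against 0.00394 over all genes tested. At 72 h, 12 were lower and 1 higher, where 12.8% and 14.7% of all genes were, and the median was -0.12 (range -0.65 to 0.20). The count at 72 h depended on single libraries. Of the 36 genes, 5 were called without replicate 2 of the adherent cells, 8 without replicate 3 and 7 without replicate 5. Without replicates 1, 2, 3 and 4 of the non-adherent cells, 6, 8, 6 and 4 were called. Shares over all genes are not given for these fits.

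By role, the lower genes at 48 h were 5 of 6 clamp and clamp loader genes, 4 of 4 nucleotide synthesis genes, 4 of 5 CDC45 and GINS genes, 3 of 6 polymerase genes, 2 of 5 licensing factors, 1 of 6 MCM subunits and 1 of 4 regulators. With single libraries left out, the call was lost for Cdc45 in 17 fits (-0.12 to -0.10), for Gins2 in 6 (-0.35 to -0.25), for Pola1 in 6 (-0.13 to -0.11) and for Tk1 in 1, without adherent replicate 2 (-0.22). Ccne2 was at 36.4, 52.1, 53.8, 46.2 and 44.6 CPM in adherent and 27.2, 30.4, 29.5, 31.1 and 27.8 CPM in non-adherent cells at 48 h, with no overlap. It was 1.6-fold lower in the non-adherent cells (log2 fold change -0.67, SE 0.133, edgeR adjusted p = 0.000163) and 1.57-fold lower at 72 h (-0.65, SE 0.144, edgeR adjusted p = 0.00261). Rfc4 was lower by 0.59 on the log2 scale at 48 h (edgeR adjusted p = 0.000504). Tyms was at 61.1, 79.8, 70.8, 66 and 62.2 CPM in adherent and 46.5, 46.7, 49.2, 51.3 and 44.5 CPM in non-adherent cells at 48 h, lower by 0.51 on the log2 scale (edgeR adjusted p = 0.000749). Rrm2 was lower in non-adherent cells by 0.15 at 48 h (edgeR adjusted p = 0.00235) and by 0.23 at 72 h (SE 0.0426, edgeR adjusted p = 0.000524), a small step beside its fall against DMSO-sEV cells. With offsets for length and GC content the sign of Rrm2 at 48 h turned to 0.09, as did those of Cdc45 (0.08), Gins1 (0.06) and Pcna (0.06). These genes did not pass the test with the offsets, nor did Pola1 (-0.10). Mcm7 (-0.09), Cdt1 (-0.17), Mcm10 (-0.17), Pold1 (-0.26) and Pole (-0.16) passed as lower with the offsets, and not in the reported fit. The counts by role are of the reported fit and differ with the offsets.

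The 3 genes higher in non-adherent cells at 48 h were an MCM subunit and 2 regulators. Mcm4 was higher, from 191, 177, 176, 181 and 200 CPM in adherent to 208, 212, 204, 200 and 207 CPM in non-adherent cells (log2 fold change 0.16, SE 0.0519, edgeR adjusted p = 0.0123). E2f1 rose from 31, 30.6, 30.2, 31.5 and 31.9 CPM to 37.8, 36.7, 35.5, 37.8 and 33.6 CPM at 48 h, with no overlap (0.23, SE 0.0607, edgeR adjusted p = 0.00289). Uhrf1 rose from 161, 151, 146, 154 and 172 CPM to 187, 186, 181, 175 and 195 CPM, 1.18-fold and with no overlap (0.24, SE 0.0602, edgeR adjusted p = 0.00177). It was also 1.15-fold higher at 72 h (0.20, SE 0.064, edgeR adjusted p = 0.0271), a call that was lost, at 0.18 to 0.20, without adherent replicate 2, 3 or 5 or non-adherent replicate 2, 3 or 4. With length and GC offsets the values at 48 h were 0.27 for Mcm4, 0.08 for E2f1 and 0.10 for Uhrf1, of which those of E2f1 and Uhrf1 did not pass the test. The value of Uhrf1 at 72 h was 0.12 with the offsets, which did not pass either (edgeR adjusted p = 0.101). At 72 h Ccne1 was 1.4-fold lower in non-adherent cells, at 8.3, 8.11, 8.58, 8.77 and 7.24 CPM in adherent and 6.44, 5.05, 6.25 and 5.84 CPM in non-adherent cells (-0.48, SE 0.1, edgeR adjusted p = 0.0016), while at 48 h it differed by -0.03. The test of that difference between times gave -0.45 (SE 0.135, edgeR adjusted p = 0.0505), and it passed, at -0.49 to -0.45, when any 1 of 8 libraries was left out.

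Set against DMSO-sEV cells, the non-adherent cells had 32 genes lower and 1 higher at 48 h, where 33.4% and 33.2% of all genes were, and 31 lower and 2 higher at 72 h, where 36.2% and 38.3% were. The medians were -0.59 and -0.68. With DMSO-sEV replicates 1 to 3 alone 32 genes were lower at 48 h and 31 at 72 h, and with replicates 4 and 5 alone 33 and 34. Shares over all genes are not given for these refits. This comparison shares its libraries with both comparisons above, so the values are given beside those of the adherent cells and add no separate test. At 72 h 14 of the 36 genes were at least 2-fold lower, as were 8.69% of all genes. Ccne2 was 4.24-fold lower (log2 fold change -2.08, SE 0.147, edgeR adjusted p = 8.2e-13), from 112, 139, 117, 81.7 and 76.1 CPM to 25.4, 27.6, 25.1 and 20.5 CPM, with -2.31 against DMSO-sEV replicates 1 to 3 alone and -1.66 against replicates 4 and 5 alone. Rrm2 was 2.38-fold lower at 48 h and 2.81-fold at 72 h, Tyms 3.2-fold, Tk1 2.86-fold and Gins2 2.83-fold at 72 h. On the log2 scale at 72 h Rrm2 differed by -1.50 from DMSO-sEV replicates 1 to 3 alone and by -1.47 from replicates 4 and 5 alone, Tyms by -1.91 and -1.22, Tk1 by -1.70 and -1.17, and Gins2 by -1.77 and -0.96. Gins3 was higher at both times, by 0.19 and 0.23 (edgeR adjusted p = 0.0068 and 0.00188). Cdt1 was higher by 0.13 at 72 h (edgeR adjusted p = 0.0156), which did not pass with DMSO-sEV replicates 4 and 5 alone (0.09, edgeR adjusted p = 0.16). With length and GC offsets Cdt1 passed the test as lower at 72 h (-0.15, edgeR adjusted p = 0.00097).

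Time was followed within each kind of cells. In DMSO-sEV cells between 48 and 72 h, 14 genes rose and 14 fell, where 27.8% of all genes rose and 23.8% fell, with a median of -0.07 (range -0.41 to 0.71). In adherent 27HC-sEV cells 18 fell, where 6.54% of all genes fell and 6.58% rose, and in non-adherent cells 14 fell, where 6.91% fell and 5.7% rose. The medians were -0.21 and -0.15. In adherent 27HC-sEV cells 0 of the 36 rose by edgeR, 0 at an unadjusted p under 0.05 and 0 by DESeq2, limma-voom or limma-trend. In non-adherent cells 0 rose by edgeR, 1 at an unadjusted p under 0.05 (Gins3), 1 each by DESeq2 and limma-voom and 0 by limma-trend. All 6 MCM subunits fell in adherent cells (median -0.26), 5 of 6 in non-adherent cells (median -0.27) and 5 of 6 in DMSO-sEV cells (median -0.26). Mcm3 fell with time in all 3 kinds, by 0.27, 0.26 and 0.26, and Uhrf1 by 0.41, 0.41 and 0.45.

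**Figure D5:**
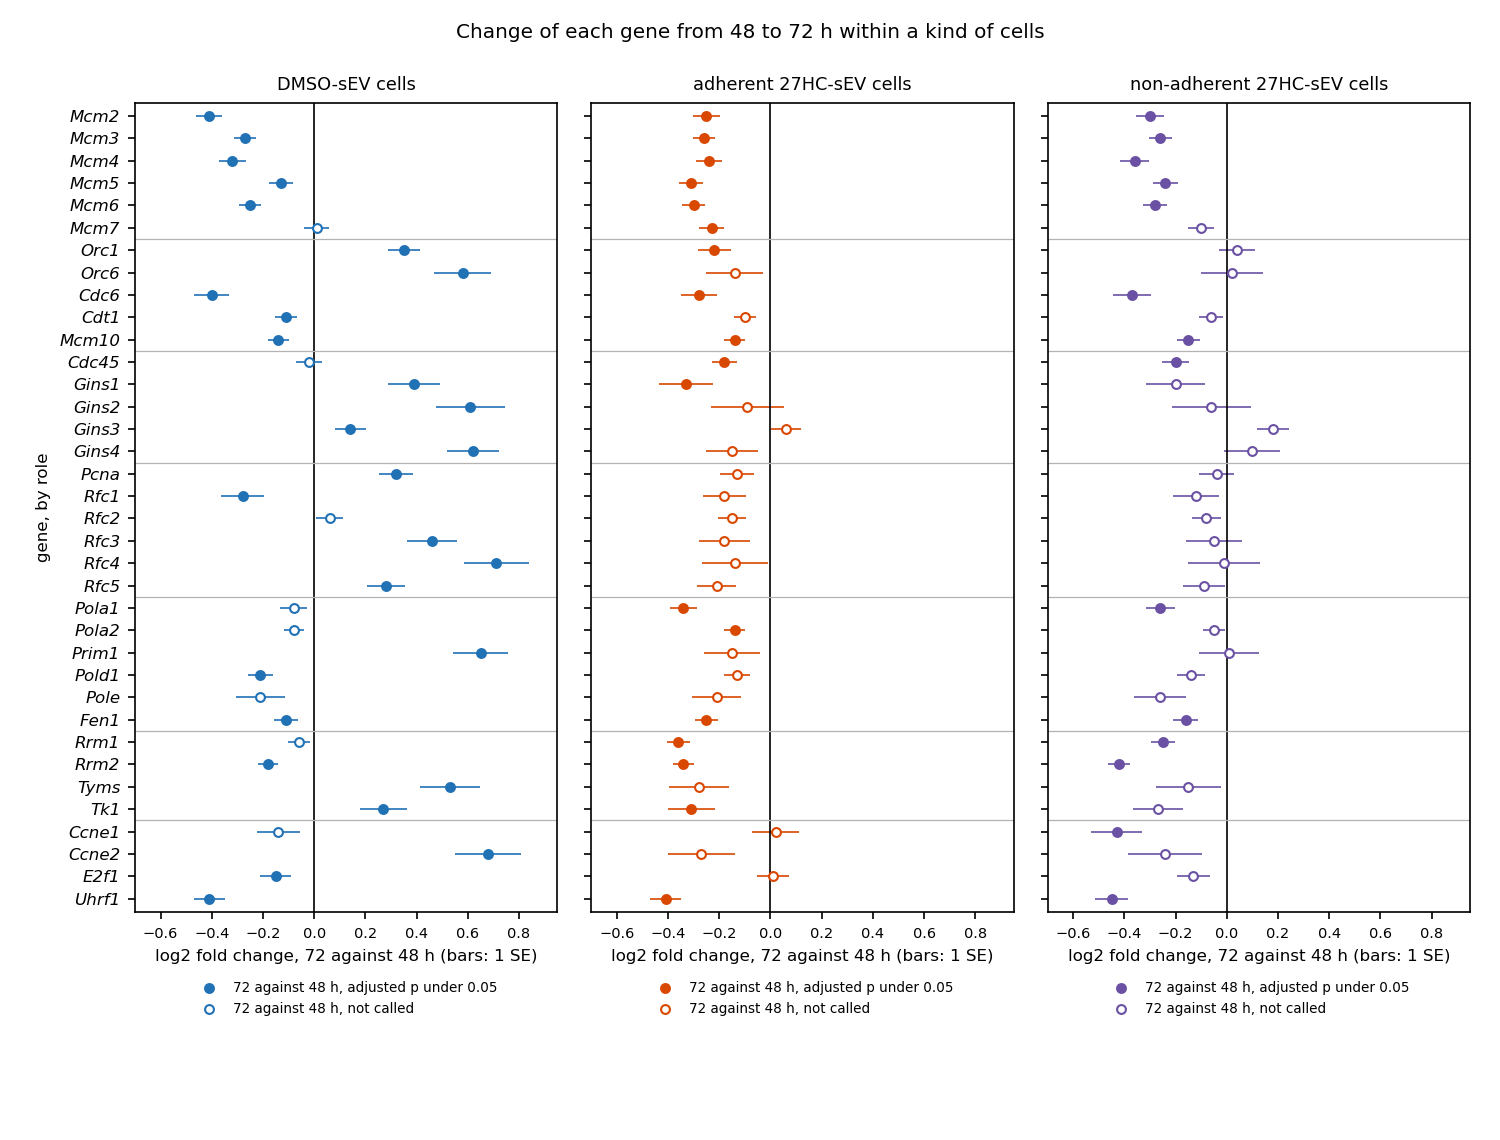
Log2 fold change of each gene at 72 against 48 h, with bars of 1 SE, in DMSO-sEV, adherent 27HC-sEV and non-adherent 27HC-sEV cells. The DMSO-sEV values run from -0.41 to 0.71, and those of the 27HC-sEV cells from -0.45 to 0.18.

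The genes that rose with time in DMSO-sEV cells were Orc1, Orc6, all 4 GINS genes, Pcna, Rfc3, Rfc4, Rfc5, Prim1, Tyms, Tk1 and Ccne2. Those that fell were Mcm2 to Mcm6, Cdc6, Cdt1, Mcm10, Rfc1, Pold1, Fen1, Rrm2, E2f1 and Uhrf1. With single libraries left out, the call of Gins3 was lost in 20 fits, of Fen1 in 9, of Mcm5, Cdt1 and E2f1 in 5 each and of Tk1 in 4. By longest protein-coding transcript, on which the levels per kilobase rest, the first set had a median of 1550 bases (range 1087 to 3900) and the second 3417 (range 2189 to 4867). By longest transcript of any kind, on which the offsets rest, the medians were 2622 and 3495 bases (ranges 1087 to 3900 and 2193 to 4867), with a GC content of 46.7% (range 36.3% to 53.4%) and 51.8% (range 45.5% to 61%). The ranges overlapped, and no test was made of these sets, which were chosen by their change with time. Within DMSO-sEV cells at 72 h, 18 of the 36 genes were higher in all of replicates 1 to 3 than in replicates 4 and 5. Another 13 were lower and 5 overlapped. The share of all genes that split this way is not given, so these counts are no result about the 36 in particular. The shares over all genes with time, 27.8% risen and 23.8% fallen, are of the reported fit, and those of the refits that follow are not given. With DMSO-sEV replicates 4 and 5 alone, 8 genes rose and 7 fell with time, and with replicates 1 to 3 alone the counts were 14 and 18. With length and GC offsets 13 rose and 12 fell, and the signs of Gins1 (-0.06), Gins3 (-0.01) and Pcna (-0.07), which had risen, and of Cdt1 (0.05), Mcm10 (0.01), Pold1 (0.08) and E2f1 (0.02), which had fallen, turned.

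Whether the difference between adherent 27HC-sEV and DMSO-sEV cells itself changed with time was tested as an interaction. It was more negative at 72 h for 19 of the 36 genes, where 21.4% of all genes were more negative and 15.9% more positive. For 0 of the 36 was it more positive by edgeR, 1 at an unadjusted p under 0.05 (Mcm2) and 0 by DESeq2, limma-voom or limma-trend. The 19 were 5 of 6 clamp and clamp loader genes, 4 of 4 nucleotide synthesis genes, 3 of 5 CDC45 and GINS genes, and 2, 2, 2 and 1 of the MCM, licensing, polymerase and regulator genes. For Ccne2 it was -0.95 (SE 0.184, edgeR adjusted p = 0.000239). The most negative difference of any of the 36 was -1.06 with DMSO-sEV replicates 1 to 3 alone and -0.72 with replicates 4 and 5 alone. Orc1 was at 43.8, 44.6, 44.3, 38.3 and 39.4 CPM and 55.2, 58.2, 58.7, 49.6 and 47.3 CPM in DMSO-sEV cells at 48 and 72 h, and at 33.3, 37.2, 34.8, 35 and 33.3 CPM and 27, 31.8, 31.3, 29.3 and 30 CPM in adherent 27HC-sEV cells. It rose with time in the former by 0.35 (SE 0.0631, edgeR adjusted p = 4.61e-05) and fell in the latter by 0.22 (not passing without adherent replicate 2 at 48 h or replicate 1 or 4 at 72 h, at -0.21 to -0.18), a difference of -0.57 (SE 0.09, edgeR adjusted p = 1.94e-05). Gins4 was at 59, 58.5, 54.9, 48.3 and 50.5 CPM and 90.4, 108, 92, 62.3 and 65.2 CPM in DMSO-sEV cells, and at 49.8, 61.5, 57.6, 52.6 and 50.9 CPM and 44.7, 52.1, 48.4, 48.5 and 51.8 CPM in adherent 27HC-sEV cells. It rose in DMSO-sEV cells by 0.62 (SE 0.101, edgeR adjusted p = 1.43e-05), and the difference between times was -0.77 (SE 0.143, edgeR adjusted p = 0.000144), with -0.90 for DMSO-sEV replicates 1 to 3 alone, -0.52 for replicates 4 and 5 alone and -0.44 with length and GC offsets. Mcm3, Mcm10 and Uhrf1 had differences of 0.01, -0.00 and 0.01 between times, which did not pass the test. With length and GC offsets they were -0.14 (edgeR adjusted p = 0.0282), -0.16 (0.0188) and -0.20 (0.0243), all of which passed. Rrm2 had -0.16, a call lost without DMSO-sEV replicate 4 at 48 h (-0.14) or adherent replicate 5 at 72 h (-0.15), and 0.11 with the offsets.

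For the difference of non-adherent and adherent cells, 0 of the 36 passed the test between times by edgeR in either direction, where 3.41% of all genes were more negative and 1.18% more positive at 72 h. At an unadjusted p under 0.05 there was 1 more positive (Orc1) and 1 more negative (Ccne1). The other tools called 0 more positive, while for the more negative direction DESeq2 and limma-trend called 1 each and limma-voom 0.

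Further genes of the same pathways were listed by function. In adherent 27HC-sEV against DMSO-sEV cells their counts stand beside shares over all genes of 22.7% lower and 21.3% higher at 48 h, and 33.4% and 32% at 72 h. Of 44 further origin and fork genes, 29 fell and 1 rose in adherent 27HC-sEV against DMSO-sEV cells at 48 h (median -0.26), and 39 fell at 72 h (median -0.57). Pold2, the accessory subunit of the polymerase that holds POLD1, fell by 0.77 at 48 h (SE 0.0495, edgeR adjusted p = 2.91e-13). Wdhd1, which ties polymerase alpha to the helicase, fell by 0.58 at 48 h and by 0.84 at 72 h (SE 0.0418, edgeR adjusted p = 6.81e-16), and Lig1, the ligase that joins Okazaki fragments, by 0.66 at 72 h. The single gene that rose was Pold4, by 0.45 at 48 h (SE 0.147, edgeR adjusted p = 0.0129). In non-adherent against adherent cells 27 of the 44 were lower and 2 higher at 48 h, where 28.4% and 25.7% of all genes were, among them Orc2 (-0.49, SE 0.0547, edgeR adjusted p = 5.97e-08), and 16 were lower at 72 h, where 12.8% of all genes were.

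Of 28 further nucleotide synthesis genes, 27 were tested. At 48 h 21 fell and 2 rose (median -0.40), and at 72 h 23 fell and 2 rose (median -0.53). Gart, of purine synthesis, fell by 0.62 at 48 h (SE 0.0412, edgeR adjusted p = 4.75e-13), Ctps, a CTP synthase, by 0.55 at 48 h and 0.63 at 72 h, and Dck, deoxycytidine kinase, by 0.85 at 72 h (SE 0.0469, edgeR adjusted p = 6.33e-15). Tk2, the mitochondrial thymidine kinase, rose by 0.33 and 0.28, unlike its cytosolic counterpart Tk1.

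The E2F, pocket protein and CDK regulators, 26 tested of 29, were mixed, with 12 lower and 6 higher at 48 h (median -0.16) and 16 lower and 3 higher at 72 h (median -0.27). Ccna2, the S phase cyclin A, fell by 0.73 at 48 h (SE 0.0446, edgeR adjusted p = 9.01e-14) and by 0.96 at 72 h, and Skp2, which targets p27 for degradation, by 0.65 and 0.95. Cdkn2c, the CDK4 and CDK6 inhibitor p18, rose by 0.44 at 48 h (SE 0.0355, edgeR adjusted p = 3.67e-11) and by 0.50 at 72 h, Rbl2, the pocket protein p130, by 0.36 at 48 h, and Ccnd2, cyclin D2, by 0.86 at 72 h (SE 0.106, edgeR adjusted p = 6.44e-08). In non-adherent against adherent cells at 48 h, 8 of the 26 were higher and 6 lower, near the shares over all genes (25.7% and 28.4%). Among them were E2f8, a repressor E2F, higher by 0.74 (SE 0.0691, edgeR adjusted p = 1.87e-09) and Ccnd1, cyclin D1, by 0.64 (SE 0.0647, edgeR adjusted p = 9.69e-09).

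Of 24 replication checkpoint and repair genes 22 fell at 48 h (median -0.35) and 19 at 72 h (median -0.38), with the helicase Blm lower by 0.53 and 0.82 and the nuclease Exo1 by 0.46 and 0.73. Of 34 G2/M and mitosis genes 29 fell at 48 h (median -0.36) and 33 at 72 h (median -0.69), with Ccnb1, cyclin B1, lower by 0.94 (SE 0.0438, edgeR adjusted p = 1.77e-16) and the spindle motor Kif11 by 0.75 at 72 h. Between 48 and 72 h in adherent 27HC-sEV cells 30 of the 34 fell (median -0.36), where 6.54% of all genes fell, beside 18 of the 36 replication genes (median -0.21). In non-adherent against adherent cells at 48 h, 20 of the 34 were lower and 3 higher, where 28.4% and 25.7% of all genes were, with Mki67, the proliferation marker Ki-67, higher by 0.55 (SE 0.0916, edgeR adjusted p = 2.08e-05) and the mitotic kinase Bub1 lower by 0.50 (SE 0.0638, edgeR adjusted p = 5.12e-07).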

How the data were processed

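Polyadenylated RNA of 4T1 cells was sequenced in 29 libraries, per the labels' protocols. The authors deposited estimated counts per gene, which need not be whole (40.8% of values were not, at a tolerance of 1e-06); Salmon 1.10.0, GRCm39 and mm39 are listed, per the submitters' processing notes, without a role, and the summing of transcripts to genes is not given in the sources used here. A second deposited table holds log2 CPM after TMM scaling for 13087 genes, per the file headers, and entered the limma-trend alternative alone. The labels state that the authors dropped non-adherent replicate 5 at 72 h as an outlier.

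The estimated counts were rounded to whole numbers, and 13008 of 39253 genes passed filterByExpr (minimum count 10, minimum total 15). All 6 groups were fitted in 1 edgeR 4.0.16 quasi-likelihood model (robust, TMM) in R 4.3.3, and p-values (two-sided) were adjusted by Benjamini-Hochberg across the 13008 genes, with a threshold of 0.05. The SE is the absolute log2 fold change over the square root of F. TMM factors scale all CPM, with a prior count of 2 on the log2 scale. Depth was 18794529 to 31358795 counts per library. The fits were tested on simulated data. Alternatives were DESeq2 1.42.0 and limma 3.58.1 (voom and trend), other scalings and filters, DMSO-sEV replicates 1 to 3 or 4 and 5 alone, 1 library left out, the replicate number as a block, and per-library offsets for transcript length and GC content (splines with 4 degrees of freedom).

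Transcript lengths and GC come from GENCODE M21 and promoters from RefSeq, both on GRCm38, another build than the submitters'. Strand was not used here, and how the deposited counts treated it was not examined, so reads of overlapping antisense genes may not be told apart. In each role group the genes named were the one with the smallest p at 48 h and the one with the largest change at 72 h, with those against the majority and those whose difference between times had the smallest p. Other members were named by role after their values were seen. The members and lists were chosen with earlier results of these data known.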

Additional observations from a re-analysis of the deposited data

Results flagged for a closer look

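Under the same contrast, adherent 27HC-sEV against DMSO-sEV cells, 19 genes differed between 48 and 72 h by a test of the difference itself (edgeR, adjusted p under 0.05), each more negative at 72 h. On the log2 scale the differences were -0.19 for Mcm5, -0.24 for Mcm7, -0.57 for Orc1, -0.73 for Orc6, -0.72 for Gins1, -0.70 for Gins2, -0.77 for Gins4, -0.45 for Pcna and -0.21 for Rfc2. They were -0.64 for Rfc3, -0.85 for Rfc4, -0.49 for Rfc5, -0.26 for Pola1, -0.80 for Prim1, -0.30 for Rrm1, -0.16 for Rrm2, -0.81 for Tyms, -0.57 for Tk1 and -0.95 for Ccne2. With DMSO-sEV replicates 4 and 5 alone 18 genes were called more negative, and with length and GC offsets 24. The most negative value with replicates 4 and 5 alone was -0.72, beside -0.95 over all replicates. In the reported fit 21.4% of all genes were more negative, and the shares in these refits are not given. With single libraries left out, the call of Rfc2 was lost in 6 fits (-0.20 to -0.16), of Rrm2 in 2 (-0.15 and -0.14) and of Mcm5 in 1 (-0.16).

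In 12 of 216 gene and group pairs 1 library stood far from the others of its group, where chance gives about 1 in 20. The levels of these libraries were 291 CPM for Mcm3 in DMSO-sEV replicate 3 at 48 h, 252 CPM for Mcm6 in non-adherent replicate 2 at 72 h, 84.2 CPM for Cdt1 in non-adherent replicate 1 at 72 h, 57.4 CPM for Mcm10 in adherent 27HC-sEV replicate 5 at 48 h and 248 CPM for Pcna in non-adherent replicate 4 at 72 h. In non-adherent replicate 4 at 48 h they were 55.1 CPM for Cdc45, 32.9 CPM for Gins3 and 69.6 CPM for Fen1, and in non-adherent replicate 3 at 48 h 9.15 CPM for Ccne1. In adherent 27HC-sEV replicate 1 at 72 h they were 159 CPM for Rfc1 and 101 CPM for Pole, and in adherent 27HC-sEV replicate 3 at 48 h 141 CPM for Rrm2.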

How the results depend on the processing

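Over 396 fold changes (36 genes, 11 comparisons) and 42 alternatives, 16051 values kept their side of the threshold. Beyond these, 252 passed it where the reported fit did not, and 305 no longer passed it. The other 24 changed sign with a call in the reported or the alternative fit. A change of sign without a call in either fit was counted among the 16051. Counts of calls below are of the 36 genes, and shares over all genes in the alternatives are not given. No scaling moved the median of all genes by over 0.1. For non-adherent against adherent cells at 72 h, 13 genes were called, and 21 with only the groups compared fitted, 21 with DMSO-sEV replicates 1 to 3 alone, 22 with replicates 4 and 5 alone and 4 to 16 with 1 library left out. The labels do not say that replicate numbers pair libraries, and 18 of 70 same-number pairs correlated above 0.1, which leaves the rule for a pairing (all pairs) unmet. In 27 of 70 pairings of a library with another group it correlated best with its own number, and the share due to chance was not computed. Between DMSO-sEV cells at 48 and 72 h the same-number r were 0.269, 0.248, 0.00998, 0.368 and 0.365. Different numbers within replicates 1 to 3 or 4 and 5 also correlated. Replicate 1 at 48 h had 0.308 with 2 at 72 h, 3 had 0.159 with 1, 4 had 0.29 with 5 and 5 had 0.28 with 4. These r therefore do not single out a pairing by number. With the number as a replicate block, 21 genes were called for non-adherent against adherent cells at 72 h. For 72 against 48 h, 28 genes were called in DMSO-sEV cells, 15 with replicates 4 and 5 alone and 23 to 28 with 1 left out, and in non-adherent cells 14, 22 with only the groups compared and 11 to 17 with 1 left out. For the difference between times of non-adherent against adherent cells, 0 were called by edgeR, 1 with unrounded counts, upper-quartile scaling, DESeq2, limma-trend, a filter at 1 CPM, the replicate block, only the groups compared, DMSO-sEV replicates 4 and 5 alone or length and GC offsets, 2 with replicates 1 to 3 alone and 0 to 1 with 1 left out.

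With 1 left out, adherent 27HC-sEV against DMSO-sEV cells gave 30 to 33 at 48 h and 33 to 35 at 72 h, non-adherent against adherent 20 to 24 at 48 h, non-adherent against DMSO-sEV 33 to 34 at each time, adherent cells with time 13 to 19, and the difference between times of adherent against DMSO-sEV cells 17 to 20. Of the 24 sign changes, 23 came with length and GC offsets. For adherent against DMSO-sEV at 72 h it was Cdt1 -0.06. For non-adherent against adherent at 48 h they were Cdc45 0.08, Gins1 0.06, Pcna 0.06 and Rrm2 0.09. Pold1 -0.26 and Pole -0.16 also changed there and passed as lower (edgeR adjusted p = 0.000573 and 0.00566). At 72 h they were Pcna 0.04 and Pold1 -0.20, the latter passing as lower (edgeR adjusted p = 0.0218). For non-adherent against DMSO-sEV at 72 h they were Pola2 0.05 and Cdt1 -0.15, the latter passing as lower (edgeR adjusted p = 0.00097). In DMSO-sEV cells with time they were Cdt1 0.05, Mcm10 0.01, Gins1 -0.06, Gins3 -0.01, Pcna -0.07, Pold1 0.08 and E2f1 0.02, and for the difference between times Mcm3 -0.14, Cdt1 -0.19, Pold1 -0.26 and Uhrf1 -0.20, which passed the test there, and Rrm2 0.11. Pole at 72 h was 0.00 with DMSO-sEV replicates 1 to 3 alone. The cause was not tested. The replicate block changed no other count of calls by over 1.5 times.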
